A study of Mus musculus with 2 samples.

Results

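The cadherin switch and the factors of epithelial-mesenchymal transition (EMT) were described by 10 genes, *Cdh1*, *Cdh2*, *Epcam*, *Vim*, *Fn1*, *Snai1*, *Snai2*, *Zeb1*, *Zeb2* and *Twist1*, listed for their known roles. The rule that lists them uses no measured value, but the genes were chosen with earlier results of these data known. All 10 were found, each with 1 RefSeq entry, among 21935 gene symbols, and 8 of them had an RPKM (reads per kilobase of transcript, scaled to the reads of the library) above 1 in at least 1 library, as did 11804 symbols in all. The cells were R1, a line of mouse embryonic stem (ES) cells, transduced with a lentivirus carrying a small hairpin RNA against *Kdm5b* (shKdm5b) or against luciferase (shLuc, the control), and then selected with puromycin as a population. Polyadenylated RNA was taken after 72 h of differentiation in medium without LIF, and 1 library was sequenced per condition. No difference below therefore has a replicate check, and the condition cannot be told apart from the culture and the library. The ES cells are maintained on irradiated mouse embryonic fibroblasts, and the differentiation cultures were on gelatin or in low-attachment dishes. A removal of the fibroblasts is described in the sources used here for chromatin immunoprecipitation.

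An epithelium is held together by E-cadherin, the product of *Cdh1*, which binds the same protein on the neighbouring cell and anchors the actin cytoskeleton through catenins. In EMT, cells lose E-cadherin, gain N-cadherin (*Cdh2*), vimentin (*Vim*) and fibronectin (*Fn1*), and become migratory. The zinc finger proteins SNAI1, SNAI2, ZEB1 and ZEB2 bind E-box sequences in the promoters of epithelial genes and repress them, and the basic helix-loop-helix protein TWIST1 acts in the same programme. ES cells are epithelial in this sense, and a form of EMT takes place in the embryo when cells pass through the primitive streak. KDM5B removes methyl groups from lysine 4 of histone H3, a mark of active promoters.

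Promoter sequences are shown for *Epcam* and *Twist1*, which were higher in the shKdm5b library, and for *Snai1*, a repressor that acts through E-boxes. The windows run from 250 bases before to 50 bases after the annotated start of the gene in RefSeq on GRCm38.p6, and the E-box CACCTG and its reverse complement CAGGTG, the form bound by SNAI and ZEB proteins, are in capitals.
Epcam, chr17:87635729-87636028, + strand: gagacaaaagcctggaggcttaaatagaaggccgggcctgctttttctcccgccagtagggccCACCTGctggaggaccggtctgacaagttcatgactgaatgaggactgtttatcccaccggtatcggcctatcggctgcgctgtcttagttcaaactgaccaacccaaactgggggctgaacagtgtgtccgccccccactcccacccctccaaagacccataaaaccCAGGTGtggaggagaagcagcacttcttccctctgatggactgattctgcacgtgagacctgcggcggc
Snai1, chr2:167537945-167538244, + strand: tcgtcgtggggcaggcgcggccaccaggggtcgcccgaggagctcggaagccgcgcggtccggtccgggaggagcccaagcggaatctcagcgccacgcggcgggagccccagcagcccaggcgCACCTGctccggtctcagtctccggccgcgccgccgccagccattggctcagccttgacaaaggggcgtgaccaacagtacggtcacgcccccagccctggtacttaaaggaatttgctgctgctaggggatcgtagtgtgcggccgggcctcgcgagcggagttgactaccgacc
Twist1, chr12:33957421-33957720, + strand: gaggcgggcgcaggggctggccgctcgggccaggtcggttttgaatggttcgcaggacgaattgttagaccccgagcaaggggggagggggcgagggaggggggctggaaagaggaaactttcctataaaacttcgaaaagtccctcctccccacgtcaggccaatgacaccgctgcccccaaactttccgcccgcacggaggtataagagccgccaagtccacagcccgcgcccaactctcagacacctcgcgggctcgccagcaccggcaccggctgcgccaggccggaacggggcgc
The *Epcam* window holds 2 E-boxes, at positions -187 and -19 from the start, and 11 CpG dinucleotides. Of 32851 such windows in the RefSeq table, 20.2% hold at least 1 E-box of this form and 2.88% hold at least 2. The *Snai1* window holds 1, at position -126, and 34 CpG dinucleotides. No E-box of this form lies in the *Twist1* window, which has 27 CpG dinucleotides, against a median of 7 over all windows. None lies in the *Vim* window or in the 4 *Zeb2* windows either. Windows of 5 of the 10 members were examined, and *Cdh1*, *Cdh2*, *Fn1*, *Snai2* and *Zeb1* were not covered. A match of letters is a description of the sequence, and binding was not measured in these libraries.

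The knockdown was checked first. *Kdm5b* had an RPKM of 104 with shLuc and 3.01 in the shKdm5b library, 2.88% of the control. The libraries held 78172698 and 72702698 aligned reads. Of these, 67.1% (shLuc) and 79.9% (shKdm5b) lay at a position and strand that another read already occupied, so the shKdm5b library had fewer distinct positions, 14639660 against 25736755. Intervals are given at the 95% level from the reads of a gene (exact Clopper-Pearson, counting error only). A wider interval is given beside them, in which the reads of each library were first multiplied by its share of distinct positions. A gene was counted as called when it differed by more than 1.5-fold on the log2(RPKM + 0.1) scale and had an RPKM above 1 in at least 1 library. Over all 11804 genes the median log2 ratio of shKdm5b to shLuc was -0.21. TMM scaling shifts the log2 ratio by 0.22, or by less for genes of low RPKM because of the pseudocount, and the median is then 0.01. The log2 ratio was lower for transcripts richer in GC (Spearman correlation -0.53 across 11535 genes). These genes share both libraries and are not replicates.

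Of the 8 members with an RPKM above 1, 3 were called, all higher in the shKdm5b library: *Twist1*, *Cdh2* and *Epcam*. Over all genes tested, 16.3% were called higher, 32.0% were called lower and 48.3% were called in either direction. The 3 of 8 members (37.5%) are thus more than the background among higher genes and fewer than the background in either direction, and no member was called lower. Under TMM scaling 5 of the 8 members were called higher, against 24.1% of all genes. The median log2 ratio of the 8 was 0.48. The RPKM was higher in the shKdm5b library for 6 of these 8 members, against 39.6% of all genes tested, and for 7 of all 10. In bulk RNA, a larger number of cells that express a gene cannot be told apart from more RNA per cell.

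**Figure D1:**
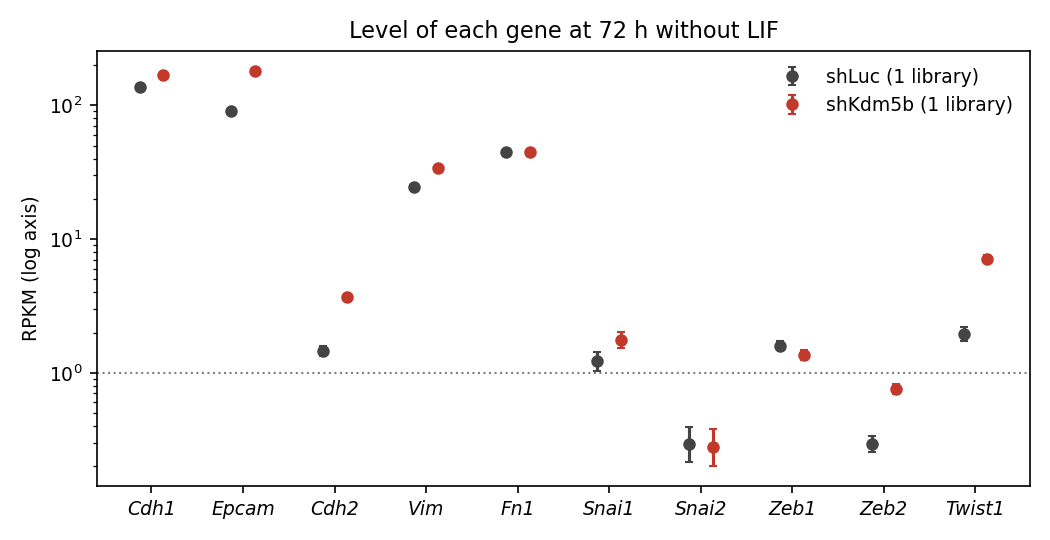
RPKM of the 10 genes (log axis) in the shLuc (grey) and shKdm5b (red) libraries, 1 library each, with 95% Poisson counting intervals and a dotted line at an RPKM of 1. *Cdh1* and *Epcam* lie above 90 in both libraries, *Fn1* and *Vim* between 24 and 45, and *Cdh2* and the 5 transcription factors below 8.

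The epithelial adhesion genes were the most abundant members in both libraries. *Cdh1*, on chromosome 8 from 106603351 to 106670246 on the + strand (GRCm38, GENCODE M21) with 16 exons, had an RPKM of 136 (46943 reads) with shLuc and 170 (54502 reads) in the shKdm5b library. It was thus higher in the shKdm5b library but within 1.5-fold, with a log2 ratio of 0.32 (0.30 to 0.34, or 0.28 to 0.36 from distinct positions). The log2 ratio was 0.57 after the GC correction and passed 1.5-fold, at 0.74, after a correction for GC content and length. Its level exceeded that of 97.7% of all genes tested in the control and of 97.5% after knockdown. *Epcam*, which encodes an epithelial adhesion molecule that is also a surface marker of undifferentiated ES cells, lies on chromosome 17 from 87635979 to 87651129 on the + strand with 10 exons. Its RPKM was 91.0 (14662 reads) with shLuc and 180 (26940 reads) in the shKdm5b library. The shKdm5b value was 1.98 times the control, a log2 ratio of 0.98 (0.95 to 1.01, or 0.93 to 1.04), and 6.57% of all genes tested had a larger log2 ratio. The order of these genes differed between the libraries: the RPKM of *Cdh1* was 150% of that of *Epcam* with shLuc and 94.5% in the shKdm5b library. Since this share is taken within a library, it does not depend on how the libraries are scaled. The difference between the log2 ratios of *Cdh1* and *Epcam* was -0.66 (-0.70 to -0.63).

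*Cdh2*, the cadherin of mesenchymal and neural cells, was low in both libraries and higher in the shKdm5b library. It lies on chromosome 18 from 16588877 to 16809246 on the - strand with 16 exons. Its RPKM was 1.45 (526 reads) with shLuc and 3.68 (1243 reads) in the shKdm5b library, 2.54 times the control. The log2 ratio was 1.29 (1.20 to 1.50, or 1.06 to 1.63), and 2.69% of all genes tested had a larger one. The level of *Cdh2* stood above that of 7.94% of the genes tested in the control and of 32.4% after knockdown.

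The cadherins differed in their balance, with more *Cdh2* and no less *Cdh1* after knockdown. Per kilobase, *Cdh1* was 94.0 times as abundant as *Cdh2* with shLuc and 46.2 times as abundant in the shKdm5b library. *Cdh2* was therefore 1.06% of the *Cdh1* level in the control and 2.17% after knockdown. The log2 ratio of *Cdh2* exceeded that of *Cdh1* by 0.97 (0.88 to 1.17, or 0.74 to 1.31 from distinct positions). The transcripts have similar GC content, 49.5% for *Cdh2* and 50.7% for *Cdh1*, and the difference was 0.88 after the GC correction. E-cadherin RNA thus exceeded N-cadherin RNA by far in both libraries.

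The mesenchymal products *Vim* and *Fn1* were not called. *Vim*, the intermediate filament gene of mesenchymal cells, lies on chromosome 2 from 13573927 to 13582826 on the + strand with 9 exons. It had an RPKM of 24.7 (3539 reads) with shLuc and 34.0 (4534 reads) in the shKdm5b library. The log2 ratio of 0.46 (0.40 to 0.53, or 0.34 to 0.59) lay inside the 1.5-fold threshold, but passed it under TMM scaling (0.68) and after the GC correction (0.94). *Fn1*, the gene of the matrix protein fibronectin, lies on chromosome 1 from 71585520 to 71653200 on the - strand with 46 exons. Its RPKM was 44.7 (29075 reads) and 44.5 (26864 reads), nearly the same value in both libraries. The log2 ratio was -0.01 (-0.03 to 0.01) and became 0.21 under TMM scaling, so its direction depends on the scaling. After the correction for GC content and length it was 0.73, past the threshold. The level of *Vim* was 18.1% of that of *Cdh1* in the control and 20.0% after knockdown, so both genes were well expressed together in each library.

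**Figure D2:**
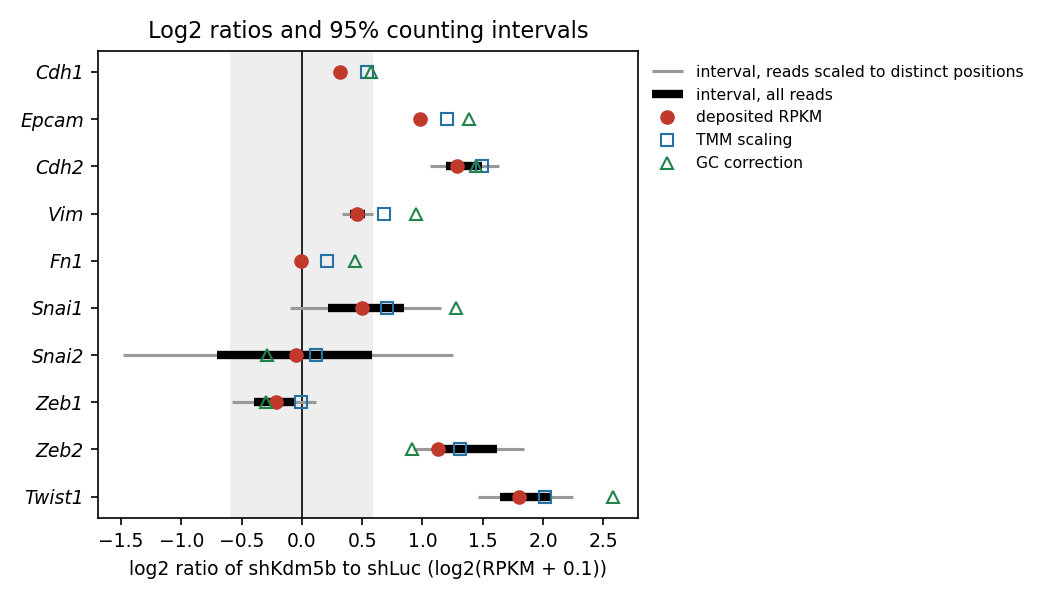
Log2 ratio of shKdm5b to shLuc for the 10 genes (red points) with the 95% counting interval from all reads (black) and from reads scaled to distinct positions (grey line), beside the values under TMM scaling (squares) and after the GC correction (triangles). The shaded band is 1.5-fold in either direction; *Twist1*, *Cdh2*, *Epcam* and *Zeb2* lie to its right under every one of these settings.

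Among the transcription factors, *Twist1* showed the largest log2 ratio of the 10 genes. It lies on chromosome 12 from 33957671 to 33959829 on the + strand with 2 exons. Its RPKM was 1.95 (249 reads) with shLuc and 7.05 (836 reads) in the shKdm5b library. *Twist1* was the most abundant of the 5 factors in both libraries, although the counting intervals of *Twist1* and *Zeb1* overlapped in the control. The shKdm5b value was 3.61 times the control, a log2 ratio of 1.80 (1.65 to 2.06, or 1.46 to 2.25), and 0.474% of all genes tested had a larger one. This transcript has a GC content of 59.3%. In its decile of GC content, 1154 genes from 58.5% to 82.9%, 4.07% of genes were called higher, with a median log2 ratio of -0.88, and 0.0867% had a larger log2 ratio than *Twist1*. After the GC correction the log2 ratio of *Twist1* was 2.58.

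The SNAI genes were low. *Snai1*, on chromosome 2 from 167538195 to 167542814 on the + strand with 3 exons, had an RPKM of 1.22 (151 reads) with shLuc and 1.76 (203 reads) in the shKdm5b library. The log2 ratio of 0.50 (0.22 to 0.85) was within 1.5-fold, and its wider interval, -0.10 to 1.16, included 0. It passed 1.5-fold under TMM scaling (0.70) and after the GC correction (1.28), with a GC content of 59.8% in the same decile as *Twist1*. *Snai2*, on chromosome 16 from 14705852 to 14709385 on the + strand with 3 exons, had 46 reads (RPKM 0.293) with shLuc and 41 reads (RPKM 0.280) in the shKdm5b library. A difference was not detectable at this depth, since the interval of the log2 ratio ran from -0.71 to 0.58. The log2 ratio was -0.05 as deposited, 0.12 under TMM scaling and -0.29 after the GC correction.

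*Zeb2* was higher with shKdm5b, while *Zeb1* lay near the median of all genes and below that of its decile of GC content. *Zeb1*, on chromosome 18 from 5591860 to 5775467 on the + strand with 8 exons, had an RPKM of 1.59 (650 reads) with shLuc and 1.36 (516 reads) in the shKdm5b library. The log2 ratio was -0.21 (-0.40 to -0.06, or -0.58 to 0.12), close to the median of all genes tested. Its direction depends on the scaling, since it was -0.01 under TMM scaling and 0.01 with DESeq2 size factors. After the GC correction the log2 ratio of *Zeb1* was -0.30. In its decile of GC content the median log2 ratio was 0.10, and 72.5% of genes had a larger one than *Zeb1*. *Zeb2* lies on chromosome 2 from 44983632 to 45117395 on the - strand with 10 exons. It had 208 reads (RPKM 0.292) with shLuc and 502 reads (RPKM 0.758) in the shKdm5b library, 2.60 times the control. Both values are below the RPKM minimum, so *Zeb2* was not called, although its log2 ratio of 1.13 was past 1.5-fold. Without the pseudocount, which lowers the ratio of such a gene, the interval was 1.14 to 1.62 (0.92 to 1.84 from distinct positions). After the GC correction the log2 ratio of *Zeb2* was 0.91. In its decile of GC content 30.5% of genes were called higher, with a median log2 ratio of 0.28, and 7.55% had a larger one than *Zeb2*. Per kilobase, *Zeb2* was 18.3% of the *Zeb1* level in the control and 55.7% after knockdown. The difference between the log2 ratios of the ZEB genes was 1.34 (1.32 to 1.89, or 1.05 to 2.16).

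In the order of levels, neighbours whose counting intervals overlapped with shLuc were *Twist1* and *Zeb1*, *Zeb1* and *Cdh2*, *Cdh2* and *Snai1*, and *Snai2* and *Zeb2*. The other neighbours had separate intervals. In the shKdm5b library the order was *Epcam*, *Cdh1*, *Fn1*, *Vim*, *Twist1*, *Cdh2*, *Snai1*, *Zeb1*, *Zeb2* and *Snai2*, and no neighbours had overlapping intervals by all reads.

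**Figure D3:**
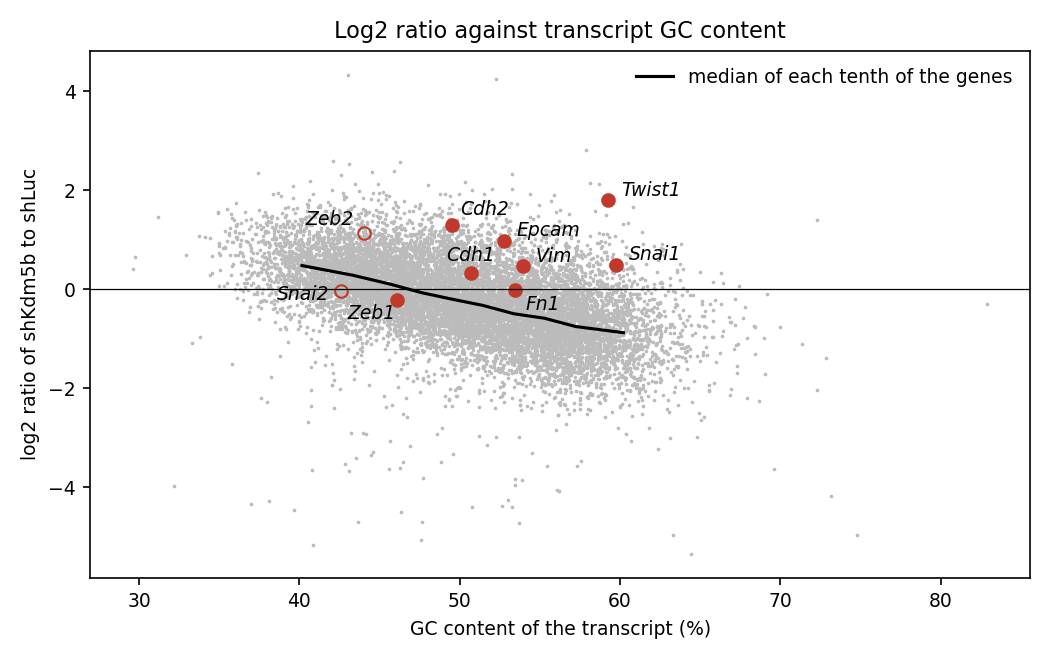
Log2 ratio of shKdm5b to shLuc against the GC content of the transcript (%) for genes with RPKM above 1 (grey points), with the median of each decile of GC content (line) and the 10 genes (red, open where RPKM was at most 1). The line runs from 0.48 to -0.88, and *Twist1* and *Snai1* lie far above it, *Snai2* and *Zeb1* below it.

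The wider epithelial programme was mixed. The junction and keratin list held 27 genes, all with an RPKM above 1 in at least 1 library, of which 6 were higher and 6 lower, 22.2% each, against 16.3% and 32.0% of all genes tested (median log2 ratio 0.09). Under TMM scaling the split was 9 higher and 3 lower. *Perp*, a desmosomal membrane protein gene, had the largest log2 ratio of the list, 2.10, from 4.58 to 20.0 RPKM. *Krt19*, a keratin of simple epithelia, was 2.54 with shLuc and 4.42 in the shKdm5b library (log2 ratio 0.77). *Pkp3*, which encodes the desmosomal protein plakophilin 3, was at 2.26 and 0.775 RPKM (log2 ratio -1.43). The keratin partners *Krt8* and *Krt18*, which form 1 filament, went opposite ways: *Krt8* had a log2 ratio of -1.35 and *Krt18* of 0.66. *Ctnnb1*, the gene of the catenin that binds E-cadherin, had an RPKM of 257 and 274 and was not called.

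Of 18 expressed epithelial regulators and proteases out of 20 listed, 2 were higher (11.1%) and 3 lower (16.7%), with a median of -0.21. The shares among all genes tested were 16.3% and 32.0%. Under TMM scaling 4 were higher and 1 lower. *Grhl2*, a transcription factor that maintains *Cdh1* expression in epithelia, was lower in the shKdm5b library, with an RPKM of 20.8 in the control and 6.93 after knockdown (log2 ratio -1.57, or -1.36 after the GC correction). *Grhl3* of the same family was higher, at 3.87 and 6.87 (log2 ratio 0.81), as was the vesicle protein gene *Mal2* (log2 ratio 0.67). *Cdh3*, which encodes P-cadherin, was at 21.3 and 12.3 RPKM (log2 ratio -0.78 and -0.42 after the GC correction, inside the threshold).

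Most other cadherins were low. Of 16 listed, 4 had an RPKM above 1 in a library, and all 4 were called (3 under TMM scaling), against 48.3% of all genes tested. *Cdh10* was higher and *Cdh3*, *Cdh9* and *Cdh24* were lower. *Cdh10*, *Cdh9* and *Cdh24* had an RPKM above 1 in only 1 library, which favours a call. With no RPKM minimum 8 of 16 were called, 2 higher and 6 lower, against 34.8% of all genes. *Cdh10* had 182 reads with shLuc and 581 reads in the shKdm5b library (RPKM 0.684 and 2.35, log2 ratio 1.64). *Cdh24* had 478 and 115 reads (log2 ratio -1.78) and *Cdh9* had 401 and 121 reads (log2 ratio -1.47). *Cdh2* was thus not the single cadherin of low level with a higher value after knockdown.

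Other factors associated with EMT showed both directions. Of 13 expressed factors out of 21 listed, 2 were higher (15.4%) and 4 lower (30.8%), near the shares among all genes tested. The median log2 ratio was -0.35, with 3 higher and 3 lower under TMM scaling and 2 higher and 0 lower after the GC correction. The factors counted as higher were *Wwtr1*, which encodes the YAP-related coactivator TAZ (7.21 and 17.9 RPKM, log2 ratio 1.30), and *Msx2*, a homeobox gene (0.627 and 1.54 RPKM, log2 ratio 1.17). *Tead4* had a log2 ratio of -1.05 and *Snai3*, the third SNAI gene, of -0.93, both with a GC content near 60% (60.5% and 59.2%). *Twist2*, the paralog of *Twist1*, had 11 reads with shLuc and 3 reads in the shKdm5b library.

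Of 12 expressed mesenchymal adhesion and matrix genes out of 25 listed, 1 was higher (8.33%) and 5 were lower (41.7%), against 16.3% and 32.0% of all genes tested. The median log2 ratio was -0.55, with 2 higher and 2 lower under TMM scaling and 3 higher and 3 lower after the GC correction. *Itga5*, the integrin subunit of the fibronectin receptor, had an RPKM of 7.58 in the control and 2.75 after knockdown (log2 ratio -1.43). The neural adhesion gene *Ncam1* was at 2.41 and 1.29 (log2 ratio -0.85). *Sparc*, a matrix protein gene, was at 20.2 and 31.0 (log2 ratio 0.62) and was the 1 gene of the list called higher.

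Genes of the TGF-beta pathway, a main inducer of EMT, showed both directions. Of 15 expressed genes out of 18 listed, 3 were higher (20.0%) and 2 lower (13.3%), against 16.3% and 32.0% of all genes tested (median 0.04). Under TMM scaling 5 were higher and 1 lower. *Smurf2*, a ubiquitin ligase that acts on SMAD proteins, had a log2 ratio of 0.86 and the corepressor gene *Tgif1* of 0.81. The inhibitory SMAD gene *Smad7* was at 23.0 and 11.6 RPKM (log2 ratio -0.99), and *Tgfb1*, a ligand, had a log2 ratio of -0.74. After the GC correction *Smad7* (-0.33) and *Tgfb1* (0.12) were inside the threshold.

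The proteins that SNAI and ZEB factors recruit, and those that turn them over, were expressed in both libraries. Of the 17 listed genes with an entry, 1 was higher (5.88%) and 5 lower (29.4%), against 16.3% and 32.0% of all genes tested (median -0.46). There were 3 higher and 3 lower under TMM scaling, and 0 higher and 2 lower after the GC correction. *Ehmt2*, an H3K9 methyltransferase gene, was at 41.0 and 16.3 RPKM (log2 ratio -1.33), *Ctbp1*, a corepressor gene, at 41.1 and 20.0 (log2 ratio -1.04), and the deacetylase gene *Hdac2* at 52.4 and 88.1 (log2 ratio 0.75). After the GC correction *Ehmt2* (-0.51), *Ctbp1* (-0.37) and *Hdac2* (0.52) were within 1.5-fold.

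**Figure D4:**
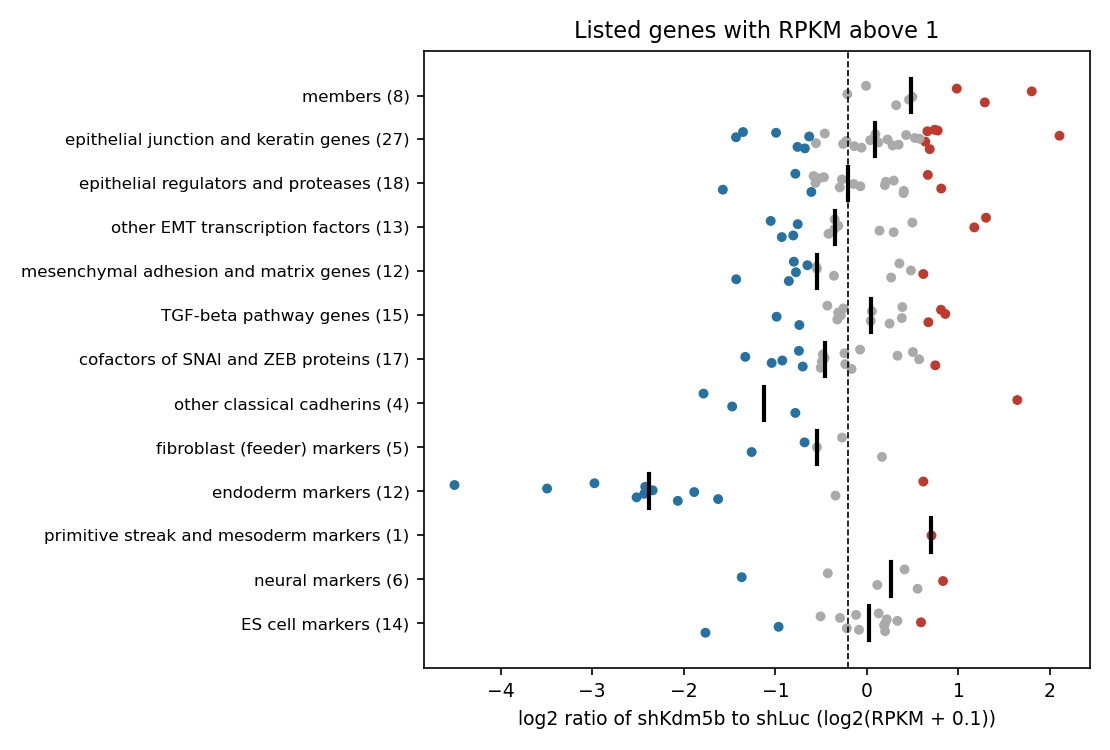
Log2 ratio of shKdm5b to shLuc for each listed gene with RPKM above 1 in at least 1 library (red, called higher; blue, called lower; grey, not called), with the median of each list (bar), the number of genes in brackets and the median of all genes (dashed line, -0.21). The endoderm markers have the lowest median, -2.38, and no member lies among the called lower genes.

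Markers of other cell types were examined beside the mesenchymal members, since fibroblasts and endoderm also express *Vim*, *Fn1* or *Cdh2*. Of 18 fibroblast markers, 13 had an RPKM of at most 1 in both libraries, and the summed RPKM was 23.5 with shLuc and 18.7 in the shKdm5b library. The largest values were those of *Mmp2* (10.2 and 6.95 RPKM), followed by *Thy1* (4.08 and 4.59). *Col1a1* had an RPKM of 0.474 and 0.395. Of the list, 8 of the 18 had a higher RPKM with shKdm5b and 10 a lower one. *Fap*, *Postn* and *S100a4* had 0 reads with shKdm5b and at most 6 in the control. Of the 5 with an RPKM above 1, 0 were called higher and 2 lower (40.0%), *Fbln2* (log2 ratio -1.26) and *Loxl1* (log2 ratio -0.68). Of all genes tested, 16.3% were called higher and 32.0% lower. The direction of the list depends on the processing, since 0 were called under TMM scaling, 2 were higher and 1 lower after the GC correction, and 3 were higher and 0 lower after the correction for GC content and length.

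Endoderm markers were lower in the shKdm5b library. Of 12 expressed markers out of 18 listed, 10 (83.3%) were called lower and 1 (8.33%), *Sparc*, was called higher. Of all genes tested, 32.0% were called lower and 16.3% higher. The median log2 ratio of the list was -2.38, and -1.61 after the GC correction. *Cubn*, an endocytic receptor gene of visceral endoderm, had 4920 reads with shLuc and 123 reads in the shKdm5b library (log2 ratio -4.50), and *Ttr* had 243 and 12 reads (log2 ratio -3.49). *Dab2* was at 18.5 and 3.15 RPKM and *Lamb1* at 17.4 and 13.7. The summed RPKM of the list was 92.3 and 54.2, and *Afp* had 65 reads with shLuc and 0 in the shKdm5b library. The part of endoderm cells in the values of *Fn1*, *Vim* and *Cdh2* was not tested.

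Of the 12 primitive streak and mesoderm markers, *Eomes* alone had an RPKM above 1 (2.45 and 4.05, log2 ratio 0.70). The RPKM was higher with shKdm5b for 5 of the 12 and lower for 7. With no RPKM minimum 4 of the 12 were called (33.3%), 3 higher and 1 lower, against 34.8% of all genes. *T* had 6 reads with shLuc and 47 in the shKdm5b library, and *Wnt3* had 53 and 127. In the other direction *Lhx1* had 139 and 13 reads. Among 6 expressed neural markers, *Nes* was called higher (log2 ratio 0.83) and *Tubb3* lower (log2 ratio -1.37). These are 16.7% each, against 16.3% and 32.0% of all genes tested. Under TMM scaling and after the GC correction 3 neural markers were higher and 1 lower, and 6 of the 9 with an entry had a higher RPKM with shKdm5b. *Otx2* had the highest level (149 and 111 RPKM). The summed RPKM of the neural list, of which *Otx2* makes up most, was 224 and 177, and *Neurog2* had 1 and 0 reads. All 14 ES cell markers were expressed, with a summed RPKM of 3239 and 3333. Of these, 1 was higher (*Dppa5a*, log2 ratio 0.59) and 2 were lower (*Pou5f1*, log2 ratio -1.76, and *Esrrb*, log2 ratio -0.96). These are 7.14% and 14.3% of the list, against 16.3% and 32.0% of all genes tested. After the GC correction 4 were higher and 1 lower, with *Pou5f1* at -1.06 and *Esrrb*, at -0.34, inside the threshold. The part of these cell types in the values of *Cdh2*, *Epcam* and *Twist1* was not tested.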

How the data were processed

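Polyadenylated RNA of 1 shLuc and 1 shKdm5b library was analysed. The authors deposited for each of 27405 RefSeq entries its length, its RPKM and its read count, as well as a file of aligned reads. The deposited read counts, lengths and RPKM values give the number of aligned reads as the library total. The submitters' processing notes list CASAVA 1.0, Bowtie 0.12.7 and mm8, and the counting program is not given in the sources used here. A further column of small whole numbers was not used.

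Each symbol was represented by its entry of highest mean RPKM, and the log2 ratio was taken across all genes with a pseudocount of 0.1 RPKM. With 1 library per condition no test was made and no p-value is given. The members and lists were chosen with earlier results of these data known. The lists share some genes. Named genes were all members, *Kdm5b*, and from each list up to 2 called higher and 2 called lower with the largest difference, with the most abundant markers of other cell types. *Twist2*, *Krt18*, *Ctnnb1*, *Col1a1*, *Fap*, *Postn*, *S100a4*, *Afp*, *Neurog2*, *T*, *Wnt3* and *Lhx1* were added after their values were seen. *Foxf1*, *Ajuba* and *Map2* had no entry under these symbols.

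The interval of a difference between 2 log2 ratios came from the log odds ratio of the reads, without the pseudocount. GC content came from the GENCODE M21 transcript with the same RefSeq accession, found for 97.7% of the genes with RPKM above 1. Its length could differ from that of the entry, as for *Zeb2* (5624 against 9113 bases). The corrections removed a lowess curve (fraction 0.3) of the log2 ratio over GC content, and then over length. Coordinates are those of GRCm38 and not of the mm8 alignment. The calls and intervals were tested on simulated reads with planted changes and Poisson counting error only. Repeated positions, a GC trend and variation between libraries were not simulated, so that test does not cover them. Python 3.11.15, pandas 2.3.3, SciPy 1.17.1, statsmodels 0.14.6, edgeR 4.0.16 (TMM) and DESeq2 1.42.0 (size factors) were used.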

Additional observations from a re-analysis of the deposited data

How the results depend on the processing

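No paired analysis was possible because shLuc and shKdm5b have a single library each. No library was left out in turn, as none would remain. Removal of duplicate reads per gene was not run, since no annotation of the mm8 build was used here. The interval from distinct positions was chosen after seeing the data. It multiplies the reads of every gene by the same share of its library. The repeated positions of a single gene were not counted, so the interval can be too wide or too narrow for that gene. With this interval, 6 members lay above 0, against 7 from all reads.

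*Twist1* and *Cdh2* were called under every alternative except an RPKM above 11, and *Epcam* under every alternative except a fold change above 2. The number of members called, 3, was 5 under TMM scaling, DESeq2 size factors and the GC correction, which added *Vim* and *Snai1*, and 7 after the GC and length correction, which also added *Cdh1* and *Fn1*. It was 1 of the 4 members tested with RPKM above 11 (25%), against 21.8% of all genes called higher and 47.6% in either direction. The settings that gave 5 or 7 tested 8 members. Of all genes, 24.1% (TMM), 24.8% (DESeq2), 18.5% (GC) and 15.5% (GC and length) were then called higher. In either direction these shares were 47.2%, 47.3%, 37.2% and 32.4%. No member was called lower under any alternative. The difference between the log2 ratios of *Cdh2* and *Cdh1*, 0.97, was 0.62 with a pseudocount of 1 and 0.88 after the GC correction.

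Over all genes, 5702 were called, and 2678 with RPKM above 11, 2688 with a fold change above 2 and 3765 after the GC and length correction. TMM scaling gave 2836 higher and 2715 lower genes in place of 1921 and 3781.

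Of the gene lists, the numbers called were 12 junction genes, 5 epithelial regulators, 6 other EMT factors, 6 mesenchymal genes, 5 TGF-beta genes, 6 SNAI and ZEB cofactors, 4 other cadherins, 2 fibroblast markers, 11 endoderm markers, 1 streak marker, 2 neural markers and 3 ES cell markers, and they stayed within 1.5 times these counts except as follows. With RPKM above 11, 5 junction genes, 2 epithelial regulators, 3 other EMT factors, 1 mesenchymal gene, 3 TGF-beta genes, 1 other cadherin, 0 fibroblast markers, 3 endoderm markers, 0 streak markers and 1 neural marker were called. With a fold change above 2, 3 junction genes, 1 epithelial regulator, 3 other EMT factors, 1 mesenchymal gene, 0 TGF-beta genes, 2 SNAI and ZEB cofactors, 1 fibroblast marker, 0 streak markers, 1 neural marker and 1 ES cell marker were called. With a pseudocount of 1, 3 epithelial regulators, 3 TGF-beta genes, 0 fibroblast markers and 0 streak markers were called. After the GC correction, 2 other EMT factors, 3 TGF-beta genes, 2 SNAI and ZEB cofactors, 2 streak markers, 4 neural markers and 5 ES cell markers were called. After the GC and length correction, 3 other EMT factors, 3 mesenchymal genes, 2 SNAI and ZEB cofactors, 2 streak markers and 4 neural markers were called. With no RPKM minimum, 13 mesenchymal genes, 8 other cadherins, 7 fibroblast markers, 17 endoderm markers and 4 streak markers were called. Under TMM scaling, 0 fibroblast markers and 4 neural markers were called. With DESeq2 size factors, 0 fibroblast markers and 4 neural markers were called. With summed entries, 4 fibroblast markers were called. The causes of these changes were not tested.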

Other observations

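The hairpins of the miR-200 family, whose mature microRNAs repress *Zeb1* and *Zeb2*, have entries for *Mir200a*, *Mir200b*, *Mir200c*, *Mir141* and *Mir429*. All 5 had 0 reads in both libraries. The libraries were of polyadenylated RNA and these entries are 69 to 90 bases long. The 0 reads therefore do not show whether the family was expressed. The mature microRNAs were not measured. These entries were chosen after their values were seen.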
